A study of Mus musculus with 4 samples.

Results

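The tumour suppressor p53 (gene Trp53) and 9 of its well-known target genes were examined in erythroid cells of the mouse with and without Med16, a subunit of Mediator, the coactivator through which DNA-bound factors recruit the polymerase. The 10 genes were chosen by symbol: Trp53, Mdm2, Ccng1, Phlda3, Zmat3, Sesn1, Sesn2, Apaf1, Trp53inp1 and Aen. They leave out targets of the BCL2 and CDK inhibitor families. All 10 were found among the 56691 genes listed, and 9 had enough counts to be tested. Phlda3 did not.

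The libraries came from poly(A) RNA of Ter119+ bone marrow cells, and Ter119 is a surface antigen of the erythroid lineage. There were 2 libraries of Med16 fl/fl mice, which carry floxed Med16 alleles, and 2 of Med16 KO mice, all 4 with a time label of 3 weeks. The labels do not say whether that time is an age or an interval after deletion, which Cre driver or exons were used, the sex, or whether the replicates represent different mice. The p values below therefore reflect only how far these 4 libraries scatter, and that scatter may be technical.

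As background, p53 is a transcription factor that is held at a low level by the ubiquitin ligase MDM2 and accumulates when DNA is damaged, ribosome assembly fails or nucleotides run short. It is controlled mainly through protein stability and modification, so the level of Trp53 mRNA is not a measure of p53 activity. Its targets arrest the cell cycle, start apoptosis, repair DNA, adjust metabolism and, through Mdm2, turn p53 off again. In erythroid precursors p53 is best known for the anaemia that follows faulty ribosome production, where its activation stops division and kills the cells.

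The DNA that p53 reads is a pair of decamers of a fixed consensus, here called the p53 decamer, lying side by side or a few bases apart. The sequences below are shown because they are the places where this consensus occurs, without mismatch, in the 250 bases before the annotated starts of the members. Promoters came from RefSeq (build GRCm38.p6, a different build from that of the counts), which matched 8 of the 10 genes. The decamer reads the same on both strands. Each sequence is written 5′ to 3′ on the strand of its gene, with the decamer in capitals and, for Ccng1, a second decamer with 1 mismatch directly before it also in capitals.
Ccng1: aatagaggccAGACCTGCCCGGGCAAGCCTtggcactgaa
Mdm2: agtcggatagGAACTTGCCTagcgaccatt
Trp53: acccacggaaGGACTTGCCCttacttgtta
Sesn1: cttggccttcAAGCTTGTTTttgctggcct
Aen: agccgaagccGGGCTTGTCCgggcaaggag
The Ccng1 stretch lies at chr11:40755452-40755491 on the minus strand and its pair begins 195 bases before the start. That of Mdm2 lies at chr10:117710925-117710954 (minus strand) and that of Trp53 at chr11:69580274-69580303 (plus strand). The Sesn1 stretch, at chr10:41887256-41887285 (plus strand), precedes the downstream of its 2 annotated starts, and so does that of Aen at chr7:78895927-78895956 (plus strand).

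A p53 decamer was thus present before 5 of the 8 matched members, against 8.2% of the 27025 genes in the promoter table and 19.1% of 47 other p53 targets. An adjacent pair as in Ccng1 occurred in 25 of 32851 windows. The windows of Phlda3, Sesn2 and Apaf1 held no such decamer, which says only that these letters are not in these windows. Members known as p53 targets were chosen as such, so the shares are a description, and binding was not measured here.

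Libraries held 6749196 to 7216333 counts assigned to genes, so that 1 count equalled 0.139 to 0.148 CPM, a count scaled to library size. Genes with at least 1 count numbered 18947 and 19016 in fl/fl and 16892 and 16479 in KO. Reads not aligned made up 1.05% and 0.826% in fl/fl and 2.69% and 3.27% in KO. Both differences follow genotype, and their part in the results below was not tested. Med16 itself was counted 164 and 127 times in the fl/fl libraries and 16 and 30 times in the KO libraries, a log2 fold change of -2.64 (SE 0.34, adjusted p = 4.6e-05 by the quasi-likelihood test of edgeR with Benjamini-Hochberg adjustment). Of 13052 genes tested, 2400 (18.4%) were called at an adjusted p under 0.05, with 1109 (8.5%) higher and 1291 (9.89%) lower in Med16 KO. With library size as the only scaling the split was 1365 higher and 1055 lower. Over all genes, fewer were called when either fl/fl library was left out and more when either KO library was. A call gained or lost in such a fit need not be particular to that gene. Markers of the sorted lineage were abundant in every library and mostly lower in KO: of 19 erythroid genes tested, 15 were lower and 3 higher, with a median log2 fold change of -0.47. Their summed level changed little, at 204950 and 204970 CPM in fl/fl and 192300 and 203380 CPM in KO. Most of that sum came from the globin genes Hba-a1 (mean 65970 CPM in fl/fl and 76289 CPM in KO) and Hbb-bs (72919 and 64771 CPM). The sum therefore says little about the other erythroid genes. The 3 higher genes were Alas2 (0.13), Hba-a1 (0.21) and Hba-a2 (0.44). Markers of other marrow cells moved as well. Of 16 neutrophil genes 13 were higher and none lower, and their summed level was 14848 to 15019 CPM in fl/fl and 20651 to 21144 CPM in KO. Of 13 megakaryocyte genes 11 were higher by edgeR and 4 by DESeq2 (summed level 103 to 119 CPM in fl/fl, 256 to 263 CPM in KO). Of 16 monocyte and macrophage genes 5 were higher and 3 lower (2384 to 2454 against 3278 to 3321 CPM). Their log2 fold changes were positive for 8 and negative for 8, with a median of -0.004. Lyz2 alone went from a mean of 1702 CPM in fl/fl to 2458 CPM in KO. Of 14 B lineage genes 3 were higher (592 in both fl/fl libraries against 922 and 937 CPM). Negative log2 fold changes were found for 9 of the 14, and the median was -0.11. Stromal and endothelial genes were higher for 3 of 9 (288 and 289 against 472 and 506 CPM). Of 10 T and NK genes 0 were called by edgeR or DESeq2 (1 was higher at an unadjusted p under 0.05), and of 13 eosinophil, basophil and mast cell genes 2 were lower. Only Gp1bb and Emcn among these markers were at 0 in every library. Immediate early genes, which handling can raise, were higher for 13 of 20, and 5 of 10 mitochondrially encoded genes were higher. The part of these shifts in the results below was not tested, and in bulk RNA fewer cells of a type and less RNA per cell cannot be told apart.

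Among the 10 genes, 2 fell in Med16 KO, Sesn1 by 27.5% and Apaf1 by 25.8%, and 0 rose. Neither Trp53 nor the classical p53 targets Mdm2 and Ccng1 passed the test. The 2 calls make up 22.2% of the 9 genes tested, near the 18.4% of all genes called. DESeq2 also called 2 lower and 0 higher, and at an unadjusted p under 0.05 edgeR had 3 lower and 1 higher. Of the 9, 7 had negative and 2 positive log2 fold changes, with a median of -0.24 against 0.02 over all genes tested. The genotypes did not overlap in 6 of them, against 57.6% of all genes tested, 5 with KO below (28.2% of all genes tested) and 1 with KO above (29.4%). The values of every gene in every library are shown in the plot of levels by library.

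**Figure D1:**
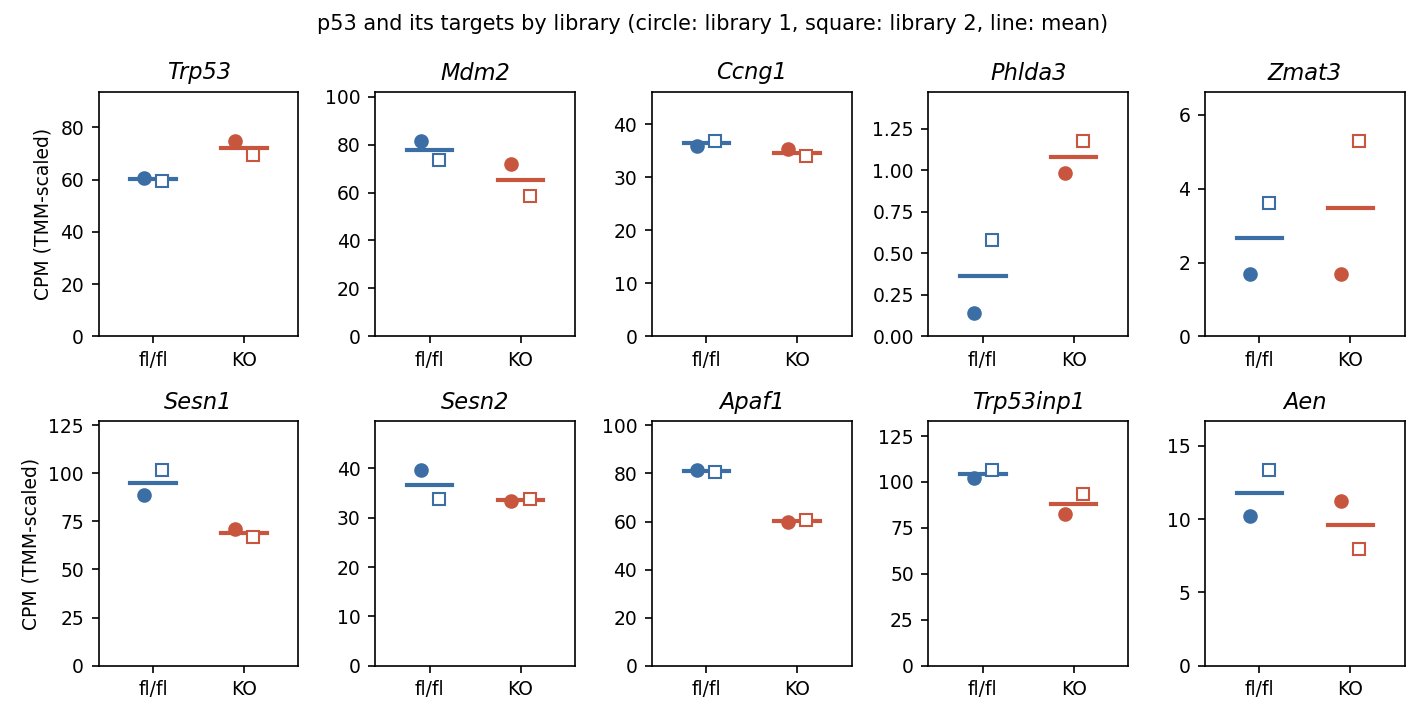
Level of each of the 10 genes in TMM-scaled CPM (vertical axis from 0, scaled separately per gene) in the Med16 fl/fl (blue) and Med16 KO (red) libraries, with library 1 as a filled circle, library 2 as an open square and the mean as a line. Apaf1 and Sesn1 show KO libraries close together and below both fl/fl libraries, at 59.7 and 60.5 CPM for Apaf1, whereas Zmat3 differs more within each genotype than between them.

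Trp53, which encodes p53, stood at 60.7 and 59.6 CPM in the fl/fl libraries and at 74.8 and 69.6 CPM in the KO libraries. Both KO libraries lay above both fl/fl libraries. The difference of 0.26 on the log2 scale (SE 0.11, 95% interval 0.02 to 0.51) was not past the threshold over all genes (edgeR adjusted p = 0.129). It was past it without KO library 2, at 0.30 (adjusted p = 0.0465), and was 0.15 with an offset for GC content. Reads of Trp53 can also match its processed pseudogene Trp53-ps, which was assigned 1 to 11 counts per library, so the Trp53 count is uncertain to the extent that such reads were dropped. Wrap53, which is transcribed away from Trp53 on the opposite strand, had a log2 fold change of 0.18 (SE 0.18) and was not called. It was chosen for its position, and its annotated exons do not overlap those of Trp53.

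Mdm2 encodes the ligase that marks p53 for degradation and is itself switched on by p53, which closes a feedback loop. It was at 81.5 and 73.7 CPM in fl/fl and at 71.9 and 58.4 CPM in KO. The genotypes did not overlap, but KO library 1 lay close to fl/fl library 2. The log2 fold change of -0.25 (SE 0.12, 95% interval -0.52 to 0.01) had an adjusted p of 0.186 by edgeR. Without KO library 1 it was -0.42 (adjusted p = 0.00329) and without KO library 2 it was -0.12 (adjusted p = 0.459), so the value depends on which KO library is kept.

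Ccng1 encodes cyclin G1, a cyclin that recruits the phosphatase PP2A to MDM2, and is among the p53 targets with a full pair of decamers in its promoter, as printed above. Its levels were 36.0 and 36.8 CPM in fl/fl and 35.2 and 34.0 CPM in KO. All 4 libraries fell within a narrow band. Both KO libraries lay slightly below both fl/fl libraries. The log2 fold change was -0.07 (SE 0.16, 95% interval -0.40 to 0.26) and was not past the threshold (edgeR adjusted p = 0.81). It ran from -0.13 to 0.11 over other ways of processing. The interval rests on the scatter of these 4 libraries, taken in large part over all genes. It does not exclude larger changes between mice.

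Sesn1 and Sesn2 encode sestrins, stress proteins that restrain the growth kinase mTORC1 by binding the GATOR2 complex, with SESN2 acting as a leucine sensor. Sesn1 was at 88.8 and 101.6 CPM in fl/fl and at 71.1 and 66.9 CPM in KO. Its fl/fl libraries were further apart than its KO libraries, and the genotypes did not overlap. Sesn1 fell by 27.5%, a log2 fold change of -0.46 (SE 0.11, 95% interval -0.70 to -0.23, edgeR adjusted p = 0.00707). The call ended without fl/fl library 2, at -0.37 (adjusted p = 0.226), and with a coefficient of variation of 0.2 assumed between libraries (adjusted p = 0.43). Sesn2 was at 39.6 and 33.8 CPM in fl/fl and at 33.4 and 33.8 CPM in KO. The fl/fl library 2 could not be told from the KO libraries, and the log2 fold change of -0.13 (SE 0.16, 95% interval -0.47 to 0.22) was not past the threshold (adjusted p = 0.66). Leaving out fl/fl library 1 or 2 gave -0.02 or -0.25, and an offset for GC content gave -0.37 (adjusted p = 0.14). Whether the changes of the 2 sestrin genes differ was not tested.

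Apaf1 encodes the scaffold of the apoptosome, which binds cytochrome c released from mitochondria and activates caspase 9. It was counted at 81.4 and 80.6 CPM in the fl/fl libraries and at 59.7 and 60.5 CPM in the KO libraries. The libraries of each genotype were within 1 CPM of each other, which with 2 libraries is a poor measure of spread. Both KO libraries lay below both fl/fl libraries, as in 28.2% of all genes tested. Apaf1 fell by 25.8%, a log2 fold change of -0.43 (SE 0.11, 95% interval -0.66 to -0.20, edgeR adjusted p = 0.0114). The call ended when fl/fl library 1 (-0.44, adjusted p = 0.138) or 2 (-0.45, adjusted p = 0.133) was left out, where the size hardly moved and the spread was taken from the KO libraries alone. It also ended with the assumed coefficient of 0.2 (adjusted p = 0.472). The falls of Sesn1 and Apaf1 were close in size to the median of -0.47 over the erythroid markers, and their part in these falls was not tested.

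Trp53inp1 encodes a stress protein that binds p53 and also takes part in autophagy. It was at 102.4 and 106.4 CPM in fl/fl and at 82.7 and 93.7 CPM in KO. The genotypes did not overlap. The log2 fold change of -0.24 (SE 0.10, 95% interval -0.46 to -0.03) was not past the threshold over all genes (edgeR adjusted p = 0.11). Without KO library 2 it was -0.35 (adjusted p = 0.00487), and with an offset for GC content it was -0.03 (adjusted p = 0.873). Its transcript had 38.8% G and C, the lowest of the 10 genes.

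Aen, which encodes an apoptosis-enhancing nuclease, was at 10.2 and 13.3 CPM in fl/fl and at 11.2 and 7.94 CPM in KO. Zmat3 encodes a zinc finger protein that binds RNA, and it was at 1.70 and 3.63 CPM in fl/fl and at 1.69 and 5.30 CPM in KO. In both genes the genotypes overlapped. Their log2 fold changes were -0.29 (SE 0.30, 95% interval -0.94 to 0.35) for Aen and 0.39 (SE 0.66, 95% interval -1.02 to 1.79) for Zmat3, and the interval of Zmat3 includes both a fall and a rise by 2 times. Without KO library 1 or 2 the value of Aen was -0.58 or -0.08 and that of Zmat3 0.98 or -0.66, and without fl/fl library 1 or 2 they were -0.49 or -0.10 and -0.07 or 1.02. Phlda3, which encodes an inhibitor of the kinase AKT, was counted 1 and 4 times in fl/fl and 7 and 8 times in KO. Those counts are too few for the test, and no fold change is given.

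**Figure D2:**
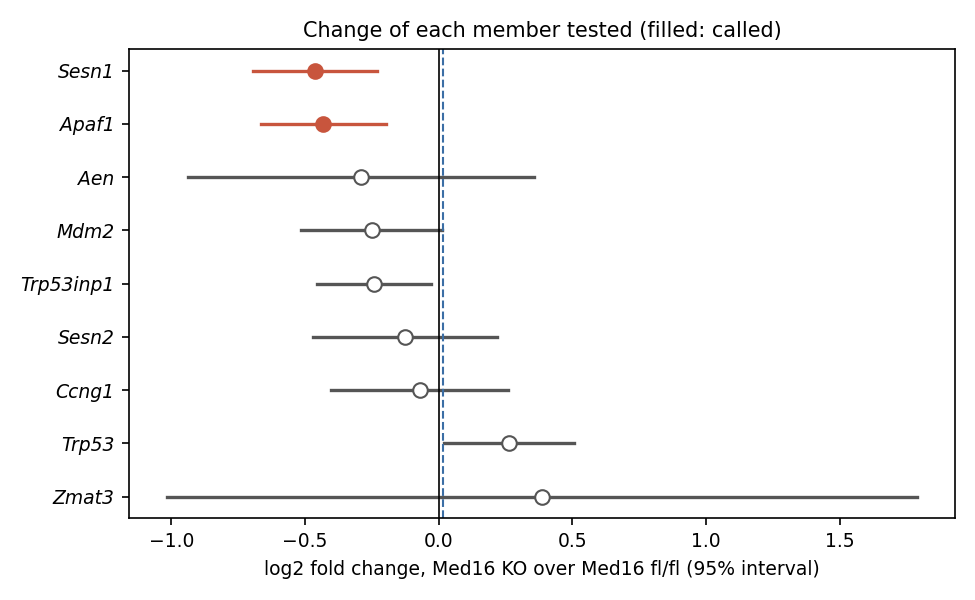
Log2 fold change of Med16 KO over Med16 fl/fl (horizontal axis) for the 9 genes tested, with 95% intervals as bars and filled points for genes called at an adjusted p under 0.05. The dashed line is the median over all genes tested, 0.02; the intervals of Sesn1 and Apaf1 end at -0.23 and -0.20, and that of Zmat3 spans -1.02 to 1.79.

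Levels were compared between the genes per kilobase of merged exon length, from the GENCODE M21 annotation of GRCm38. In the fl/fl libraries Sesn1 had the highest level at 23.9 ± 2.29 CPM per kilobase (mean ± SD, n = 2). Trp53inp1 (16.1 ± 0.45), Mdm2 (15.3 ± 1.10) and Trp53 (14.9 ± 0.20) followed, and the libraries of Trp53inp1 and Mdm2 overlapped, as did those of Mdm2 and Trp53. Sesn2 (10.6 ± 1.19) and Ccng1 (10.4 ± 0.18) overlapped with each other, and Apaf1 was next at 8.97 ± 0.06. Aen was at 2.03 ± 0.38, and Zmat3 (0.233 ± 0.119) and Phlda3 (0.231 ± 0.199) came last and overlapped. In the KO libraries Trp53, at 17.9 ± 0.92, and Sesn1, at 17.3 ± 0.73 CPM per kilobase, headed the list and overlapped each other. The fl/fl cells thus carried transcripts of p53, its feedback ligase and both sestrins at levels of the same order. Per length, the transcripts of Aen were several times scarcer than these, and those of Zmat3 and Phlda3 were much scarcer still.

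The genes most like Trp53 in their course over the 4 libraries, by distance between centred log2 CPM values, were Tspan32 (distance 0.00915), Washc2 (0.0138) and Nop58 (0.0281). They are examples of a common course, since 947 of the 9195 genes compared lay within 0.2 of Trp53.

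Regulators of p53 were examined as a list of 30 kinases, ubiquitin enzymes, acetyltransferases and binding proteins. This list and those below were chosen with earlier results of these data known. Their shares set against all genes are therefore a description. Of 29 tested, 11 fell, against 9.89% of all genes, and 0 rose. The median log2 fold change was -0.14. The number lower was 4 when fl/fl library 1 was left out and 6 when fl/fl library 2 was, and 2 were higher without KO library 2. The deubiquitinase gene Usp7, whose product stabilizes both MDM2 and p53, was at 753 ± 3.15 CPM in fl/fl and 487 ± 1.70 CPM in KO (log2 fold change -0.63, SE 0.05, edgeR adjusted p = 1.4e-07). Ppm1d, which encodes the phosphatase WIP1 that switches off the DNA damage signal and is itself a p53 target, was at 96.4 ± 5.46 and 62.1 ± 1.02 CPM (-0.63, SE 0.11, adjusted p = 5.0e-04).

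The other regulators described here were chosen after their values were seen. Mdm4, a relative of Mdm2 that blocks the activation domain of p53, was counted 847 and 945 times in fl/fl and 696 and 491 times in KO. It fell by 0.59 on the log2 scale (SE 0.12, edgeR adjusted p = 0.00304). The genes of the checkpoint kinases CHK1 and CHK2, which relay DNA damage to p53, were lower as well. Chek1 fell by 0.95 (SE 0.20) and Chek2 by 0.55 (SE 0.13). The Chek1 call ended without fl/fl library 1 (-0.82, adjusted p = 0.0874), and the Chek2 call without fl/fl library 1 (-0.54, adjusted p = 0.107) or 2 (-0.59, adjusted p = 0.0671). Prkdc, the catalytic subunit of DNA-dependent protein kinase, fell by 0.80 (SE 0.17) and Banp, which encodes a nuclear protein that binds p53, by 1.29 (SE 0.22). Without fl/fl library 1 Prkdc was at -0.62 (adjusted p = 0.167). The remaining 4, Trp53bp1, Sirt1, Usp10 and Ep300, fell by 0.24 to 0.45, and each lost its call when either fl/fl library was left out (adjusted p 0.0561 to 0.452). The kinase genes Atm and Atr, at the head of the damage response, had log2 fold changes of 0.03 (SE 0.24) and 0.15 (SE 0.24) that were not past the threshold. Cdkn2a, whose alternative product ARF inhibits MDM2, had 0 counts in every library. The ribosomal protein genes Rpl5 and Rpl11, whose products bind MDM2 when ribosome assembly fails, had 0.09 (SE 0.05) and 0.16 (SE 0.06), also not past the threshold.

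**Figure D3:**
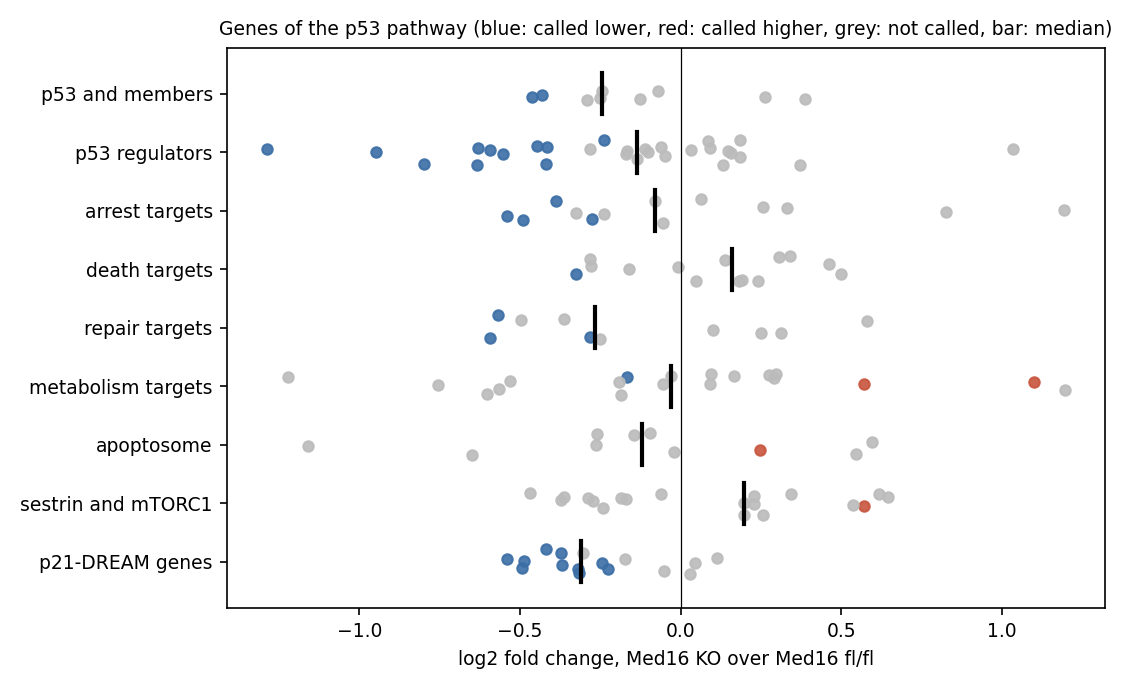
Log2 fold change of Med16 KO over Med16 fl/fl (horizontal axis) for every tested gene of the members and of 8 lists around p53, with genes called lower in blue, called higher in red and not called in grey; vertical bars are list medians and vertical scatter carries no value. The regulators hold 11 of 29 genes called lower and the cell cycle genes of the p21 and DREAM route 10 of 16. The death targets hold 1 of 14, a share of 7.14% called, near the 9.89% of all genes tested that were called lower.

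Other p53 targets were grouped by role. Of 13 arrest targets 4 were lower, against 9.89% of all genes tested, and 0 higher, with a median of -0.08 (2 lower without fl/fl library 1). Gadd45a, which encodes a stress protein that inhibits CDK1, stood at 245 ± 5.77 CPM in fl/fl and 187 ± 10.5 CPM in KO (-0.39 on the log2 scale, SE 0.07, edgeR adjusted p = 0.0010). Btg2, an antiproliferative gene, stood at 478 ± 30.2 and 395 ± 6.75 CPM (-0.28, SE 0.06). Btg2 was no longer called without fl/fl library 1 (-0.22, adjusted p = 0.0666). The remaining 2 lower genes were Gtse1, which encodes a G2 and S phase protein that exports p53 from the nucleus, and Ckap2, a spindle protein gene. The Gtse1 call ended without fl/fl library 1 (-0.45, adjusted p = 0.128) and the Ckap2 call without fl/fl library 2 (-0.43, adjusted p = 0.142). Cdkn1a, the classical p53 target that encodes the CDK inhibitor p21, was counted 92 and 80 times in fl/fl and 125 and 91 times in KO. Its log2 fold change of 0.33 (SE 0.26, 95% interval -0.22 to 0.88) was not past the threshold. Like Gtse1 and Ckap2, it was chosen after its values were seen. Sfn, which encodes the 14-3-3 sigma protein, was at 1.19 (SE 0.41, adjusted p = 0.0552), just short of it, and past it without KO library 2 (1.37, adjusted p = 0.00429), with library size as the only scaling, with the replicate number as a block (1.18, adjusted p = 0.0499) and with an assumed coefficient of variation of 0.2.

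Of 16 death targets listed 14 were tested, of which 1 was lower (9.89% of all genes tested were) and 0 higher, and their median log2 fold change was 0.16. The count called lower was 3 without KO library 1 and 0 when fl/fl library 2 was left out, and 1 or 2 were higher without KO library 1 or 2. The lower gene was Pml, which encodes the scaffold of PML nuclear bodies and is also induced by interferon, at -0.32 (SE 0.07), and its call ended without fl/fl library 2 (-0.28, adjusted p = 0.147). Ei24, an endoplasmic reticulum protein gene, was next by p value at 0.50 (SE 0.19, adjusted p = 0.0836) and was past the threshold without KO library 1 (0.53, adjusted p = 0.0334). The BH3-only genes Bbc3 (PUMA) and Pmaip1 (NOXA) and the pore-forming Bax were chosen after their values were seen. They had log2 fold changes of 0.18 (SE 0.23), 0.34 (SE 0.21) and 0.14 (SE 0.24), none past the threshold. Eda2r had 0 counts in all 4 libraries.

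Of 10 repair targets 3 were lower, against 9.89% of all genes tested, and 0 higher, with a median of -0.27. Leaving out either fl/fl library left 1 lower, and 2 were higher without KO library 2. Polh, which encodes a DNA polymerase that copies past ultraviolet lesions, was at 80.8 ± 4.61 CPM in fl/fl and 53.6 ± 2.31 CPM in KO (-0.59, SE 0.12, edgeR adjusted p = 0.00177). Rpa1, the large subunit gene of the protein that coats single-stranded DNA, was at -0.28 (SE 0.08), a call that ended without fl/fl library 1 (-0.33, adjusted p = 0.0504) or 2 (-0.26, adjusted p = 0.212).

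Of 19 metabolic and other targets tested, 2 were higher and 1 lower, with a median of -0.03 (0 higher without fl/fl library 2; 3 lower without KO library 1 and 2 without KO library 2). The share called, 15.8%, was near the 18.4% of all genes tested. Gpx1, which encodes glutathione peroxidase 1 and is abundant in red cells, was slightly lower, at 5673 ± 199 and 5049 ± 86.4 CPM (-0.17, SE 0.03). Tsc2, whose product together with TSC1 inhibits mTORC1, rose from 46.2 ± 5.29 to 68.6 ± 11.2 CPM (0.57, SE 0.14, edgeR adjusted p = 0.0104), but not without fl/fl library 2 (0.45, adjusted p = 0.187) or with an offset for GC content (0.42, adjusted p = 0.0609). Gdf15, which encodes a stress cytokine that erythroblasts secrete, was counted 63 and 32 times in fl/fl and 84 and 118 times in KO. Its rise of 1.10 on the log2 scale (SE 0.35, adjusted p = 0.0377) was not called without fl/fl library 2 (0.70, adjusted p = 0.441), by DESeq2 (1.09, adjusted p = 0.0599), with an offset for GC content (0.80, adjusted p = 0.144) or with one for transcript length (1.00, adjusted p = 0.0568). Dcxr, a carbonyl reductase gene, had 1.19 (SE 0.50, adjusted p = 0.119) and was called without KO library 2 (1.32, adjusted p = 0.0315).

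Pooled over the regulators and these targets, 85 of 91 genes were tested, of which 20 were lower and 2 higher, and the median log2 fold change was -0.06. The 22 calls make up 25.9% of them, against 18.4% of all genes tested (9.89% lower and 8.5% higher). Regulators made up 11 of the 20. At an unadjusted p under 0.05, 22 were lower and 7 higher, and DESeq2 called 16 lower and 1 higher. Leaving out fl/fl library 1 or 2 gave 9 or 11 lower and 2 or 0 higher, and leaving out KO library 1 or 2 gave 4 or 10 higher.

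The partners of Apaf1 and of the sestrins were examined beside them. The shares called were 10% for the apoptosome list and 5.26% for the GATOR and mTORC1 list. Both are below the 18.4% of all genes tested (8.5% higher and 9.89% lower). Of 10 genes of the apoptosome and its caspases 0 were lower and 1 was higher (3 higher and 2 lower without KO library 1), Htra2, which encodes a mitochondrial protease (0.25, SE 0.08, edgeR adjusted p = 0.0424). This call ended without fl/fl library 1 (0.28, adjusted p = 0.199) or 2 (0.19, adjusted p = 0.519), by DESeq2, without a filter on low counts and with an offset for transcript length, and the value was -0.03 with an offset for GC content. Casp9 and Cycs, the caspase and the cytochrome c that APAF1 assembles, were at -0.02 (SE 0.18) and -0.10 (SE 0.18) and were chosen after their values were seen. Of 19 GATOR and mTORC1 genes tested, Tsc2 alone was called, and that call did not hold in every fit, as given above. Tsc1 was at -0.47 (SE 0.16, adjusted p = 0.0538), opposite in sign to Tsc2. It was called without a filter on low counts (-0.49, adjusted p = 0.0345), without KO library 2 (-0.61, adjusted p = 0.00161), with the replicate number as a block (-0.47, adjusted p = 0.0364) and with an offset for GC content (-0.54, adjusted p = 0.0341). Mtor itself, chosen after its values were seen, had 0.26 (SE 0.13), which was not past the threshold.

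Among 14 close relatives of the members, 10 were tested and Mdm4 alone was called, a share of 10% against 18.4% of all genes tested. The p53 relatives Trp63 and Trp73 and the Zmat3 relative Zmat4 had 0 counts in all 4 libraries. Sesn3, the third sestrin gene, was counted 50 and 37 times in fl/fl and 90 and 53 times in KO. Its log2 fold change was 0.72 (SE 0.35, edgeR adjusted p = 0.19), positive where that of Sesn1 was negative, and it was past the threshold without KO library 2 (1.01, adjusted p = 0.00804).

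Active p53 is known to lower cell cycle genes through p21 and the DREAM repressor complex. Of 16 such genes 10 fell, against 9.89% of all genes tested, and 0 rose, with a median of -0.31. DESeq2 called 9 lower and 0 higher. Ccna2, which encodes cyclin A2, was at 765 ± 30.0 CPM in fl/fl and 526 ± 24.3 CPM in KO (-0.54, SE 0.05, edgeR adjusted p = 1.8e-06), and Birc5, which encodes survivin, at 315 ± 1.69 and 225 ± 8.48 CPM (-0.49, SE 0.06). Plk1, Cdc20 and Mcm5 had log2 fold changes of -0.05, 0.03 and 0.04, none past the threshold, and were chosen after their values were seen. Leaving out fl/fl library 1 or 2 gave 6 or 5. These genes also follow the share of dividing cells, which was not measured here.

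**Figure D4:**
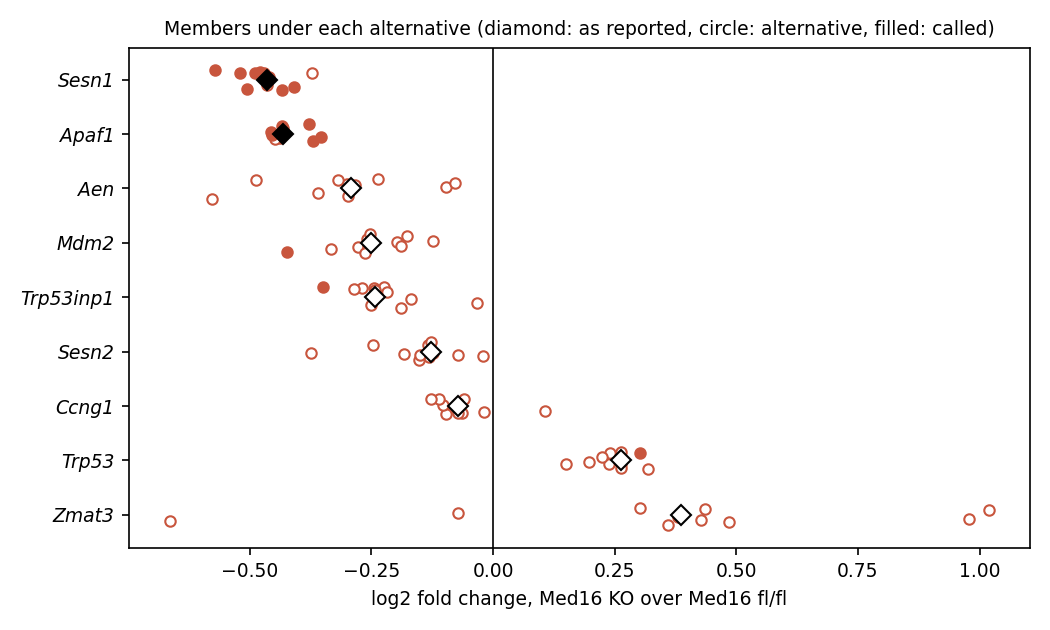
Log2 fold change of Med16 KO over Med16 fl/fl (horizontal axis) for the 9 genes tested, as reported (diamond) and under each of 11 alternatives (circles), with filled symbols where the adjusted p was under 0.05; vertical scatter carries no value. Sesn1 stayed between -0.57 and -0.37 and Apaf1 between -0.46 and -0.35, while Zmat3 ran from -0.66 to 1.02.

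Under 11 other ways of processing, the 9 genes gave 99 values, of which 3 had a sign opposite to that reported, 2 for Zmat3 and 1 for Ccng1, none of them called. Sesn1 was called in 9 of 11 and Apaf1 in 8 of 11, as the plot of alternatives shows. Trp53, Mdm2 and Trp53inp1 were each called in 1 of 11. Ccng1, Zmat3, Sesn2 and Aen were called in none.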

How the data were processed

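The deposited files hold whole-number counts per gene for each library, unnormalized. The build was GRCm39 and the tools included HTSeq 0.12.4, HISAT2 2.1.0, HOMER, FastQC 0.11.7 and DESeq2, per the submitters' processing notes. Which annotation and which strand setting served the counting is not given in the sources used here. The 5 rows that name no gene, of which reads assigned to no feature made up 35.8% to 36.7% of all reads, were left out. The fit used edgeR 4.0.16 in R 4.3.3 (filterByExpr, TMM, quasi-likelihood test by genotype, two-sided, Benjamini-Hochberg over 13052 genes, call under 0.05; common biological coefficient of variation 0.125). CPM values are TMM-scaled, means are ± SD over 2 libraries, and the SE is the log2 fold change divided by the square root of F. The spread of each gene was moderated towards that of all genes, with a median prior of 13.1 degrees of freedom against 2 residual ones. The procedure was tested on simulated data with equal spread in every library. Such data cannot show its error rates where spread differs between genotypes. Alternatives were DESeq2 1.42.0, library size scaling, no filter, each library left out and a replicate block; offsets for GC content or exon length (GENCODE M21, 98.4% of genes matched) and an assumed coefficient of variation of 0.2 were added after seeing the data. The p53 decamer was searched without mismatch. Members and gene lists were chosen with earlier results of these data known. Genes named are the members, Med16, the 2 genes of each list with the smallest adjusted p, uncalled list genes past a log2 fold change of 1 with over 100 counts in all, and the 3 nearest to Trp53. Other genes named were chosen after their values were seen, except Wrap53, chosen for its position. Some genes that this rule takes are left out of the text. For markers, list counts and summed levels are given.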

Additional observations from a re-analysis of the deposited data

How the results depend on the processing

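When 1 library is left out, the spread is estimated in the other genotype only. Spread was larger between the KO libraries than between the fl/fl libraries (chi-square per degree of freedom over genes 6.63 against 2.73). Fits called fewer genes without a fl/fl library and more without a KO library. Over such fits the genes called numbered 454 to 1839 higher and 704 to 2172 lower, the members 0 to 1 higher and 0 to 3 lower, and the other p53 pathway genes 0 to 10 higher and 9 to 24 lower. With an assumed coefficient of variation of 0.2, 331 genes were higher and 289 lower (379 of the 2400 calls were kept), with 0 members and 1 other pathway gene lower. Pathway genes called higher were 1 with DESeq2, 4 with library size scaling, 4 with the replicate block, and 1 with an offset for GC content or for length. The replicate block called 2767 genes. Same-numbered libraries did not deviate together (r = -0.0102 across genes). With so few libraries this cannot show whether same-numbered libraries share more than a number. All genes called were 1808 with DESeq2 and 1905 with a GC content offset, and the share called higher was 46.2% as reported and 56.4% with library size scaling. Htra2 turned to -0.035 with the GC content offset; the cause was not tested. Phlda3 had too few counts for a test, and the intervals of Zmat3 and Aen are wide.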
